A study of Homo sapiens with 3 samples.

Results

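The 40 genes described here encode the glucose and lactate transporters, the enzymes and regulators of glycolysis, the hypoxia-inducible factor (HIF) subunits with their oxygen sensors, and effectors of the hypoxia response. They were chosen by symbol from the 43913 gene symbols in the data. All 40 had at least 1 molecule counted in MM.1S cells of both cultures and in HS-5 monoculture, and 39 had one in HS-5 cells of the coculture. RNA was counted in single cells by Drop-seq, in which droplets pair a cell with a bead that carries a barcode, and the 3′ RNA ends are counted as unique molecular identifiers (UMIs). There were 3 libraries. The first was MM.1S, an established multiple myeloma line cultured alone, the second HS-5, a stromal line from bone marrow, also cultured alone, and the last a coculture of both for 4 h. No cytokine or drug was added. MM.1S was grown in phenol-red-free RPMI and HS-5 in DMEM, both with foetal bovine serum, so that line and medium cannot be told apart in the monocultures. The medium of the mixed culture that was sequenced and the oxygen level are not given in the sources used here.

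Glycolysis turns glucose into pyruvate in the cytosol and yields ATP without oxygen. When oxygen is short, the prolyl hydroxylases EGLN1 and EGLN3 no longer mark the HIF alpha subunits for destruction, and the stabilised HIF dimers switch on glucose transporters, glycolytic enzymes, angiogenic factors, acid-handling carbonic anhydrases and mitophagy receptors. Many of these genes also answer to other inputs, such as MYC, cytokines or amino acid shortage. The bone marrow, where myeloma cells grow beside stromal cells, is a tissue of low oxygen.

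Only cells in which 200 or more genes were seen entered the sums. Each coculture cell was given to a line by 48 MM.1S and 137 HS-5 genes, which exceeded the other monoculture by 50 times or more and were none of them among the 40. This gave 4 groups. The MM.1S monoculture gave 3947 cells and the HS-5 monoculture 3732, and the coculture gave 1645 MM.1S and 2100 HS-5 cells. Another 103 coculture cells held both lines' RNA and were left out as doublets. Of the monoculture cells, 0 were given to the other line by the same rule, and 1 HS-5 cell fell between the limits. The line genes were picked from these same monocultures, so this count was nearly fixed in advance. It cannot show how well the coculture cells were split. MM.1S cells held 10433017 UMIs alone and 1330338 mixed, with medians of 2201 and 669 per cell, and HS-5 cells 6142273 and 2469861, with medians of 971.5 and 956.5. The MM.1S cells of the coculture were thus the shallowest, and there 1.43% of their UMIs were estimated to be free RNA of HS-5 cells. The share of mitochondrial RNA was 6.82% in MM.1S monoculture and 4.05% in MM.1S coculture, and in HS-5 it was 2.79% and 2.23%. Between 39 and 76 cell barcodes were shared by pairs of libraries. Of 10 plasma cell markers, JCHAIN at 6664 CPM and MZB1 at 2526 CPM were the most abundant in MM.1S, while CD27 was near 0 there and SDC1 was higher in HS-5 (38.1 and 135 CPM). Of 12 stromal markers, COL1A1 at 498 CPM and SPARC at 324 CPM stood high in HS-5, TAGLN was near 0, COL3A1 was near 0 in both lines (2.78 CPM in MM.1S and 4.88 CPM in HS-5), and FN1 and CAV1 were higher in MM.1S (810.3 against 252 CPM and 457 against 356 CPM).

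UMIs were summed over the cells of a group and scaled to counts per 1000000 UMIs (CPM). The log2 ratio between groups has 1 CPM added to both sides and was read for genes whose mean level over both groups reached 10 CPM. Each group comes from 1 library, so that no test was made. The 95% intervals are exact, cover counting error only, and belong to the ratio without the added 1 CPM, so that the log2 ratio of a scarce gene can lie outside its interval.

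HIF dimers bind the letters ACGTG and GCGTG. For the 8 genes of the set that differed at least 2-fold between the cultures in MM.1S cells and have a promoter in the RefSeq table of GRCh38.p14, 30 bases before a transcription start are shown for that reason. Each line gives the stretch with the most matches, 5′ to 3′ on the gene's strand, with matches on either strand in capitals.
SLC16A3, chr17:82228968-82228997, plus strand: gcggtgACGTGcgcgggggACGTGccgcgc
PFKP, chr10:3104579-3104608, plus strand: acattctcagtGCGTGgGCGTGaaccccac
PFKFB3, chr10:6202812-6202841, plus strand: caccctcctcccCACGTGgaagggggctgg
HIF1A, chr14:61695296-61695325, plus strand: ttggctgagagcgGCGTGggctggggtggg
EGLN1, chr1:231422288-231422317, minus strand: ccgcggggccgtggtgtACGTGcagagcgc
CA9, chr9:35673897-35673926, plus strand: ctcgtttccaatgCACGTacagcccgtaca
BNIP3, chr10:131982041-131982070, minus strand: cgcgCACGCgccgCACGTGccaCACGCacc
GAPDH, chr12:6535171-6535200, plus strand: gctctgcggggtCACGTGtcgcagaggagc
By GENCODE release 29, the CA9 and EGLN1 stretches lie in annotated exons of longer transcripts of their own genes. Those of SLC16A3, PFKP, PFKFB3 and GAPDH lie in introns of such transcripts, and those of BNIP3 and HIF1A lie outside the gene.

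These letters are common. In the 300 bases from 250 before to 50 after a start, ACGTG or GCGTG occurred on either strand in 31 of the 34 genes of the set that have an entry (91.2%), in 72.8% of 6755 genes measured between the monocultures and in 52.4% of all 27305 genes. Counted per start rather than per gene, the shares were 67.2% of 61 windows and 62.7% of 9908 windows, which are close to each other. ACGTG alone was found in 19 of the 34 genes (55.9%) and in 34.5% of the measured genes, and per window in 37.7% and 26.8%. The base composition of these promoters was not compared. All 8 genes printed above hold a match whether their level was higher or lower in coculture, as do 23 of the other 26. ACGTG alone was found in 7 of the 8 (87.5%) and in 12 of the other 26 (46.2%). This split was counted per gene only and was not tested. SLC16A3, PFKP and PFKFB3 have matches at multiple starts. A match is a run of letters and no measured binding.

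Between the HS-5 and MM.1S monocultures, genes of the set passed 2-fold about as often as all measured genes. Of the 37 genes measured between the monocultures, 16 were at least 2-fold higher in HS-5, where 38.1% of all 8734 measured genes were, and 4 were at least 2-fold lower, where 15.3% were. Of those higher, HK1, PFKFB3, PFKFB4, EPAS1, EGLN1, ANGPTL4, STC1, CA12 and P4HA2 were under 10 CPM in MM.1S. They passed the minimum only through HS-5, and of those lower CA9 passed it only through MM.1S. These genes stay in the counts and the median, as such genes do among all measured genes. The share of 54.1% past 2-fold in either direction is close to the 53.5% of all measured genes. The 17 glycolytic enzymes together held 6589 CPM in MM.1S and 5629 CPM in HS-5, a ratio of 0.854. GAPDH and PGAM1 add little to these sums, with 47.8 and 9.01 CPM in MM.1S and 35.5 and 13.5 CPM in HS-5, and both values are uncertain. The 4 transporters together were 4.78 times higher in HS-5, the 4 HIF subunits and sensors 9.81 times and the 12 effectors 6.71 times. The median log2 ratio of the 37 genes was 0.64 against 0.56 over all measured genes.

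Among the transporters, SLC16A3 encodes MCT4, the lactate exporter typical of glycolytic cells. It was at 11.02 CPM in MM.1S and 315 CPM in HS-5 monoculture, and at 45.1 and 218 CPM in the coculture's cells of these lines. The log2 ratio of HS-5 over MM.1S monoculture was 4.72 (95% interval 4.56 to 5.12). SLC16A1, which encodes the lactate and pyruvate transporter MCT1, was at 61.3 CPM in MM.1S and 96.2 CPM in HS-5, a log2 ratio of 0.64. The glucose transporters SLC2A1 (GLUT1) and SLC2A3 (GLUT3) were both higher in HS-5, with 50.3 against 21.8 CPM and 56.2 against 14.1 CPM.

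Of the hexokinases, which carry out the first step of glycolysis, HK1 separated the lines. HK1, the hexokinase most tissues express, had 15 UMIs in all MM.1S monoculture cells (1.44 CPM) and 1207 in HS-5 (197 CPM), a ratio of 137 with a log2 interval of 6.37 to 7.94. HK2, the inducible hexokinase, was at 7.28 CPM in MM.1S and 14.3 CPM in HS-5. HK1 thus stood apart between the lines while HK2 was scarce in both.

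Lower down the pathway, MM.1S was higher for some enzymes. PGK1, phosphoglycerate kinase, was at 748 CPM in MM.1S and 163 CPM in HS-5, a log2 ratio of -2.19 (interval -2.30 to -2.11). ALDOA, the main aldolase, was at 715 and 316 CPM, a log2 ratio of -1.18. GPI, which isomerises glucose 6-phosphate, was at 90.0 and 51.0 CPM, and PKM, the muscle-type pyruvate kinase, at 973 and 732 CPM. These 4 enzymes were all lower in HS-5, whereas the next differed little. ENO1, the main enolase, was at 1581 and 1583 CPM, TPI1, triose phosphate isomerase, at 552 and 541 CPM, LDHA at 451 and 505 CPM and LDHB at 1276 and 1348 CPM. The last pair encode the subunits of lactate dehydrogenase.

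The phosphofructokinases PFKL, PFKM and PFKP, which carry out the committed step, had log2 ratios of -0.43, -0.07 and 0.77 between HS-5 and MM.1S. ALDOC, an aldolase best known from brain, had 127 UMIs in MM.1S (12.2 CPM) and 5 in HS-5 (0.814 CPM). ENO2, the neuronal enolase, was under 10 CPM in both. GAPDH and PGAM1 were at 47.8 and 9.01 CPM in MM.1S, low for genes that nearly all cells use. The files list 50 pseudogene rows for GAPDH and 11 for PGAM1, and these rows held 22.9% and 10.48% of the UMIs of each gene family in MM.1S monoculture and 54.3% and 60.0% in MM.1S coculture. The values of both genes are therefore uncertain.

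The regulators went different ways. PFKFB3 and PFKFB4 make fructose 2,6-bisphosphate, the activator of phosphofructokinase, and were at 7.09 and 6.997 CPM in MM.1S and at 16.1 and 30.8 CPM in HS-5. PDK1, the kinase that blocks pyruvate dehydrogenase, was at 43.4 CPM in MM.1S and 14.3 CPM in HS-5, a log2 ratio of -1.54 (interval -1.95 to -1.27). The difference in PFKFB3 fell under 2-fold with the median of all genes set to 0, where its log2 ratio was 0.52.

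The HIF subunits marked HS-5. HIF1A was at 15.2 CPM in MM.1S and 238 CPM in HS-5, a log2 ratio of 3.88 (interval 3.73 to 4.21). EPAS1, which encodes HIF-2 alpha, was at 1.92 and 73.1 CPM, and EGLN1, the main oxygen sensor, at 9.78 and 37.0 CPM. EGLN3 showed the opposite order at a low level, with 90 UMIs in MM.1S (8.63 CPM) and 6 in HS-5 (0.977 CPM). HIF activity is set mainly by protein stability, which these counts do not measure.

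Secreted effectors made up most of the difference in hypoxia genes. STC1, a stanniocalcin hormone, had 8 UMIs in MM.1S (0.767 CPM) and 8941 in HS-5 (1456 CPM), a log2 interval of 9.91 to 12.10. Its relative STC2 was at 10.4 and 395 CPM, and ADM, the vasodilator adrenomedullin, at 19.6 and 377 CPM. ANGPTL4, an inhibitor of lipoprotein lipase, was at 1.63 and 151 CPM. VEGFA, the angiogenic growth factor, was at 24.1 and 162 CPM, a log2 ratio of 2.70. The 5 secreted factors were all higher in HS-5.

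Carbonic anhydrases, which handle acid at the cell surface, split by line. CA9, among the genes most tightly bound to HIF activity, had 703 UMIs in MM.1S monoculture (67.4 CPM), 18 in MM.1S coculture (13.5 CPM), 1 in HS-5 monoculture (0.163 CPM) and 0 in HS-5 coculture, where 3 UMIs would be worth 1.21 CPM. The level in HS-5 monoculture was 414 times lower than in MM.1S monoculture, with a log2 interval of -14.00 to -6.21. CA12, by contrast, had 3 UMIs in MM.1S monoculture and 189 in HS-5 (30.8 CPM). CA9 was thus found in MM.1S, the line with the lower HIF1A and EPAS1 levels, and CA12 in HS-5.

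Other effectors were shared. The mitophagy receptors BNIP3 and BNIP3L were at 88.0 and 148 CPM in MM.1S and at 96.4 and 116 CPM in HS-5. NDRG1, a stress-induced gene, was at 19.6 and 23.4 CPM, and P4HA1, a collagen prolyl hydroxylase, at 46.4 and 42.0 CPM. Its paralog P4HA2 was at 4.50 CPM in MM.1S and 43.3 CPM in HS-5, a log2 ratio of 3.01. Of the 20 genes past 2-fold, 17 stayed past it under the 11 other settings that kept the minimum of 10 CPM, and the exceptions were SLC2A1, PFKFB3 and EGLN1. At a minimum of 50 CPM, 19 genes were measured and 10 of them were past 2-fold, beside 52.2% of all genes measured there.

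In MM.1S cells the coculture was set against the monoculture, which asks whether 4 h beside stromal cells went with another level of these genes. Of the 29 genes measured, 9 were at least 2-fold higher in coculture, where 19.1% of all 7835 measured genes were, and 4 were at least 2-fold lower, where 5.79% were. The 9 were SLC2A3, SLC16A1, SLC16A3, PFKP, PFKFB3, HIF1A, EGLN1, VEGFA and NDRG1, and the 4 were CA9, BNIP3, BNIP3L and GAPDH. PFKFB3 and EGLN1, at 7.09 and 9.78 CPM in monoculture, passed the minimum only through the coculture and stay in the count. Past 2-fold in either direction were 44.8% of the measured genes of the set and 24.9% of all measured genes. The sum over the 40 genes was nearly equal in both cultures, with 7221 CPM in monoculture and 7206 CPM in coculture. The median of all measured genes was itself shifted by 0.24, and with it set to 0 the split was 5 higher and 5 lower. At that setting 22.8% of all measured genes were past 2-fold. The estimated 1.43% of free HS-5 RNA, once subtracted, left 13 genes past 2-fold, 9 higher and 4 lower, beside 24.8% of all measured genes. The share of ribosomal protein gene UMIs in MM.1S was 19.3% in monoculture and 13.1% in coculture, and the 48 MM.1S genes of the line assignment held 77750.4 and 46842 CPM. JCHAIN was at 6664 and 4141 CPM and MZB1 at 2526 and 1779 CPM in these groups. The plasma cell markers did not all go this way. Of 9 measured, 6 were lower in coculture, 0 of them by 2-fold. The other 3 (33.3%) were at least 2-fold higher. The part of these shifts in the ratios was not tested.

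**Figure D1:**
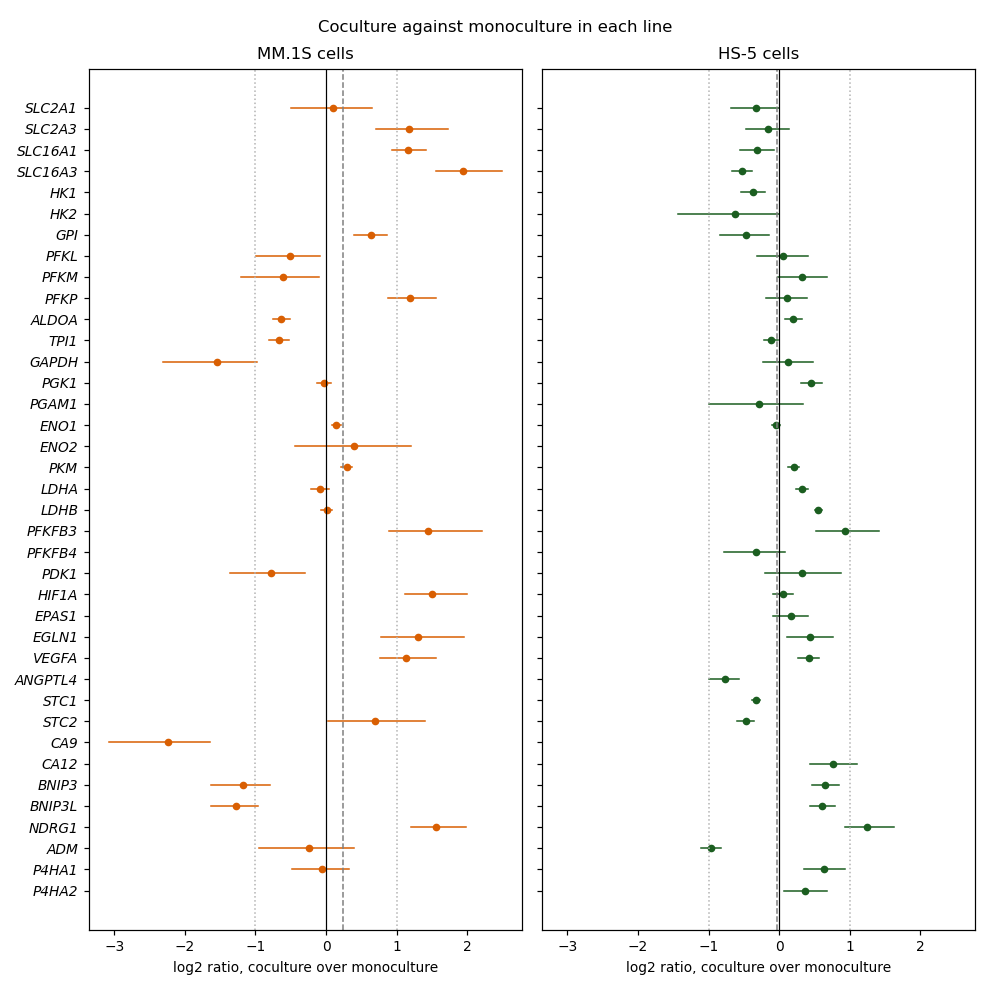
Log2 ratio of coculture over monoculture for each gene measured, in MM.1S cells on the left and HS-5 cells on the right. Points are ratios with 1 CPM added, bars 95% counting intervals, dotted lines 2-fold and dashed lines the median of all measured genes (0.24 and -0.03). In MM.1S the points spread from -2.23 for CA9 to 1.94 for SLC16A3, and in HS-5 from -0.97 for ADM to 1.24 for NDRG1.

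The lactate exporter SLC16A3 had the highest ratio in MM.1S cells among the 29 genes measured. It went from 11.02 CPM (115 UMIs) in monoculture to 45.1 CPM (60 UMIs) in coculture, a log2 ratio of 1.94 (interval 1.56 to 2.5), and HS-5 cells beside them held 218 CPM. Free RNA was estimated to give 3.11 of the 45.1 CPM, and the log2 ratio after subtraction was 1.86. SLC16A1 was at 61.3 and 138 CPM, a log2 ratio of 1.16 (interval 0.93 to 1.41), and SLC2A3 at 14.1 and 33.1 CPM. SLC2A1 was at 21.8 and 23.3 CPM and so differed by less than counting error. With the median of all genes set to 0, SLC16A1 and SLC2A3 were at 0.92 and 0.93, under 2-fold, and SLC16A3 was at 1.70.

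Among the enzymes, PFKP was at 30 CPM in monoculture and 69.9 CPM in coculture, a log2 ratio of 1.19, while PFKL was at 49.7 and 34.6 CPM and PFKM at 36.0 and 23.3 CPM. The platelet-type gene was thus higher and the liver- and muscle-type genes lower. GPI was at 90.0 and 139.8 CPM, ALDOA at 715 and 461 CPM and TPI1 at 552 and 347 CPM. PGK1 was nearly equal with 748 and 731 CPM, as were LDHA with 451 and 425 CPM and LDHB with 1276 and 1283 CPM. GAPDH was at 47.8 and 15.8 CPM, but with its pseudogene rows added the log2 ratio of -1.54 became -0.82. The enzymes' sum was 6589 CPM in monoculture and 6499 CPM in coculture.

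PFKFB3 had 74 UMIs in monoculture (7.09 CPM) and 28 in coculture (21.0 CPM), a log2 ratio of 1.45 (interval 0.89 to 2.21). In cells of 500 to 1500 UMIs in both groups, a comparison at like depth, its log2 ratio was 0.37, but with 500 UMIs drawn from each cell it was 1.5. PFKFB4 had 73 UMIs in monoculture (6.997 CPM) and 1 in coculture (0.752 CPM), which left it under the minimum mean level. PDK1 was at 43.4 and 24.8 CPM.

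HIF1A was at 15.2 CPM in monoculture and 45.1 CPM in coculture, with 159 and 60 UMIs and a log2 ratio of 1.51 (interval 1.11 to 2.00). After subtraction of free RNA, estimated at 3.52 CPM, it was 1.41. EGLN1 was at 9.78 and 25.6 CPM, a log2 ratio of 1.30, which was 0.68 in cells of 500 to 1500 UMIs and 1.27 with 500 UMIs drawn from each cell. EPAS1, with 12 UMIs in coculture, and EGLN3, with 6, stayed under the minimum level.

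The effectors moved apart from each other. CA9 was at 67.4 CPM in monoculture and 13.5 CPM in coculture, a log2 ratio of -2.23 (interval -3.08 to -1.65). BNIP3L was at 148 and 60.9 CPM, a log2 ratio of -1.27 (interval -1.63 to -0.96), and BNIP3 at 88.0 and 38.3 CPM, a log2 ratio of -1.18 that was -0.70 in cells of 500 to 1500 UMIs. NDRG1 was at 19.6 and 59.4 CPM, a log2 ratio of 1.55 (interval 1.21 to 1.98), and VEGFA at 24.1 and 54.1 CPM, a log2 ratio of 1.14. ADM and P4HA1 differed by less than counting error, with log2 ratios of -0.24 and -0.06. Effectors were thus found at both ends of the range, with CA9, BNIP3 and BNIP3L lower and NDRG1 and VEGFA higher in coculture.

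For STC1 the estimate of free RNA covered most of the value in MM.1S coculture cells. That estimate is the excess of UMIs of HS-5-specific genes over the MM.1S monoculture. Free RNA, leftover doublets and expression by the MM.1S cells cannot be told apart by it. MM.1S cells had 8 UMIs in monoculture (0.767 CPM) and 24 in coculture (18.04 CPM), and the amount expected from HS-5 RNA, at 1160.0 CPM in the HS-5 cells of the same library, was 16.5 CPM. The subtraction left 1.51 CPM. For STC2 the expected amount was 4.04 of 17.3 CPM.

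Length and depth moved with the ratios in MM.1S cells. Genes with transcripts under 1950 bases, the shortest group, had a median log2 ratio of -0.15, and those over 5142 bases, the longest, 0.53. With this trend removed 4 genes of the set were past 2-fold higher and 5 lower, beside 19.9% of all measured genes past 2-fold. SLC16A3, HIF1A, CA9, BNIP3L and NDRG1 were past 2-fold under the 14 other settings that kept the minimum of 10 CPM, whereas the other 8 fell short under at least 1 of them. At a minimum of 50 CPM, 11 genes were measured and 3 of them were past 2-fold, SLC16A1, BNIP3 and BNIP3L. Of all genes measured at that minimum, 21.9% were past 2-fold. SLC16A3, HIF1A, CA9 and NDRG1 were under that level. The part that depth plays in the ratios of these 8 was not tested beyond these settings.

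HS-5 cells differed little between the cultures. Of 36 genes measured, 1 was at least 2-fold higher in coculture, where 1.20% of 8808 measured genes were, and 0 were at least 2-fold lower, where 1.85% were. In either direction this was 3.05% of all measured genes. The one was NDRG1, at 23.4 CPM in monoculture and 56.7 CPM in coculture with 144 and 140 UMIs, a log2 ratio of 1.24 (interval 0.93 to 1.62). The enzymes' sum was 5629 CPM in monoculture and 6470 CPM in coculture, a ratio of 1.15, and the effectors' sum was 2894 and 2501 CPM, a ratio of 0.864. NDRG1 was past 2-fold higher in both lines' cells, which come from the same coculture library.

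Below 2-fold, HS-5 genes lay on both sides. LDHB was at 1348 CPM in monoculture and 1980.3 CPM in coculture, a log2 ratio of 0.55 (interval 0.50 to 0.61), and LDHA at 505 and 632 CPM. PGK1 was at 163 and 223 CPM, PFKFB3 at 16.1 and 31.6 CPM and CA12 at 30.8 and 52.6 CPM. BNIP3 was at 96.4 and 151 CPM and BNIP3L at 116 and 177 CPM, with log2 ratios of 0.65 and 0.61, and P4HA1 at 42.0 and 65.6 CPM. These were all higher in the coculture.

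On the other side, ADM was at 377 CPM in monoculture and 193 CPM in coculture, a log2 ratio of -0.97 (interval -1.11 to -0.83). ANGPTL4 was at 151 and 87.9 CPM, a log2 ratio of -0.78, SLC16A3 at 315 and 218 CPM and STC1 at 1456 and 1160.0 CPM. The secreted factors ADM, ANGPTL4, STC1 and STC2 were thus lower, but VEGFA was higher with 162 and 217 CPM. HIF1A, at 238 and 247 CPM, and EPAS1, at 73.1 and 81.8 CPM, differed by less than counting error. The HS-5 cells of both cultures had like median depths (971.5 and 956.5 UMIs) but means of 1646 and 1176 UMIs, and the genes with the shortest and the longest transcripts had median log2 ratios of 0.18 and -0.17. The count of genes past 2-fold in HS-5 was 4 with 500 UMIs drawn from each cell, where 11.2% of all measured genes passed, and 5 in cells of 500 to 1500 UMIs, where 12.1% did.

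**Figure D2:**
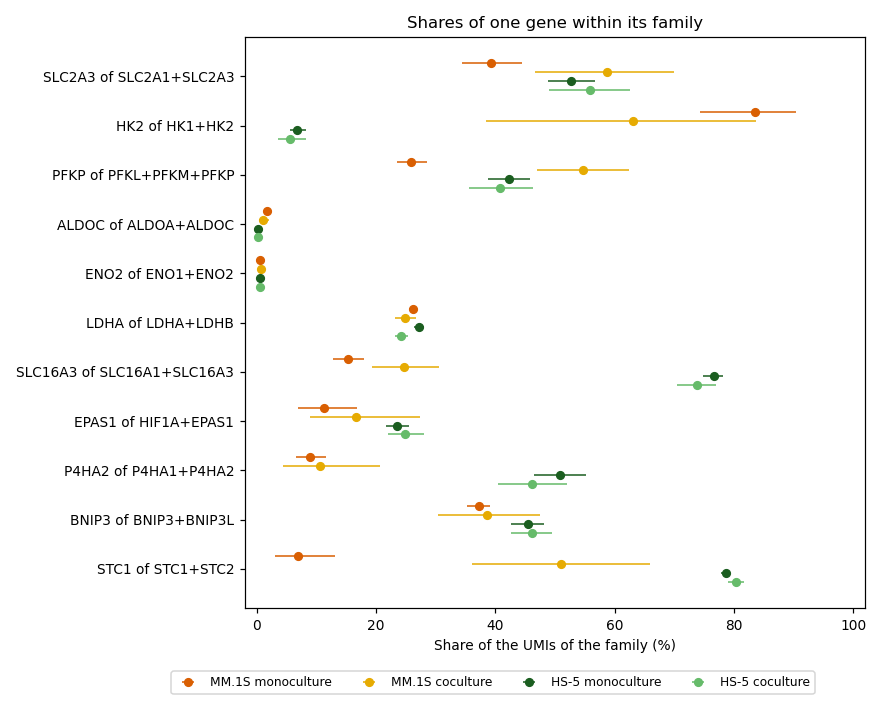
Share of one gene in the UMIs of its gene pair or family, in percent, for MM.1S and HS-5 cells of both cultures with exact 95% binomial intervals. The HK2 share is 83.5% in MM.1S and 6.80% in HS-5 monoculture, and the PFKP share is 25.9% in MM.1S monoculture against 54.7% in MM.1S coculture.

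Isoenzyme shares set the genes of a family beside each other within a group. Because 3′ UMIs of different genes may be captured unequally, the share was compared between groups only. HK2 made up 83.5% of the HK1 and HK2 UMIs in MM.1S monoculture (exact 95% interval 74.3 to 90.5%, 91 UMIs) and 6.80% in HS-5 monoculture (5.49 to 8.31%). SLC16A3 made up 15.2% of the SLC16A1 and SLC16A3 UMIs in MM.1S and 76.6% in HS-5, and P4HA2 8.85% and 50.8% of its pair. In these families the lines stood apart.

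The culture also went with a share in MM.1S cells. PFKP made up 25.9% of the phosphofructokinase UMIs in monoculture (23.5 to 28.5%) and 54.7% in coculture (46.9 to 62.3%), while in HS-5 it was 42.3% and 40.8%. SLC2A3 made up 39.3% of the glucose transporter pair in MM.1S monoculture and 58.7% in coculture, and SLC16A3 15.2% and 24.6% of the lactate pair. The LDHA share lay between 24.2% and 27.2% in all 4 groups, and the BNIP3 share was 37.2% and 38.6% in MM.1S. BNIP3 and BNIP3L thus kept their proportion in MM.1S while both were lower in coculture.

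Within single cells, 500 UMIs were drawn from each cell so that depth was equal, which left out 445 MM.1S coculture cells, 217 HS-5 monoculture cells and 300 HS-5 coculture cells. The 17 enzymes together had a mean of 3.12 UMIs per cell in MM.1S monoculture, 3.30 in its coculture cells, 2.70 in HS-5 monoculture and 3.27 in HS-5 coculture. The 12 effectors had means of 0.203, 0.169, 1.51 and 1.24 UMIs. For the enzymes, the ratio of variance to mean was 1.34 in MM.1S monoculture against 1.13 to 1.20 in the other groups, and at 1000 UMIs it was 1.70 against 1.12 to 1.25. Drawing 1000 UMIs left out 77 MM.1S monoculture and 1266 MM.1S coculture cells, and 1930 HS-5 monoculture and 1104 HS-5 coculture cells. The groups at 1000 UMIs are thus less alike, with only the deeper cells of the last 3. Among the cells kept, the enzymes' sum varied most from cell to cell in MM.1S monoculture at both depths.

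Single effectors were seen in few cells at this depth. At least 1 STC1 UMI was found in 47.3% of HS-5 monoculture cells (exact interval 45.7 to 49.0%) and in 1 of 3947 MM.1S monoculture cells, and in 1.17% of MM.1S coculture cells, where free RNA was expected. For ADM the share of HS-5 cells was 17.9% when cultured alone and 7.22% when mixed. CA9 was found in 2.81% of MM.1S monoculture cells (2.32 to 3.38%) and 0.750% of those in the coculture (0.344 to 1.42%), against 1 of 3515 HS-5 monoculture cells. SLC16A3 was found in 0.659% of MM.1S cells in monoculture and 2.08% in coculture, and in 17.9% of HS-5 monoculture cells.

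MM.1S monoculture cells were also split by whether a CA9 UMI was drawn. This split was chosen after the values had been seen. With 1000 UMIs drawn from each cell, 217 MM.1S cells had a CA9 UMI and 3653 had none, with median depths before drawing of 2421 and 2222 UMIs. Genes were read if the mean of both groups' levels, weighted equally, was at least 30 CPM. Of the 19 other genes of the set read, 16 were higher in the cells with CA9, where 49.1% of all 3983 genes read were. ADM, VEGFA and PFKP, at 17.8, 24.9 and 27.9 CPM without CA9, passed this minimum only through the cells with it. They count among the 16 and in the median. PFKL, at 27.6 CPM with CA9 and 45.2 CPM without, passed through the cells without it. The median log2 ratio of the 19 was 0.43 against -0.01 over all genes. The intervals of VEGFA, PFKP, PDK1, GPI, P4HA1, PFKM, BNIP3L, GAPDH and TPI1, all among those 16, held 0.

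**Figure D3:**
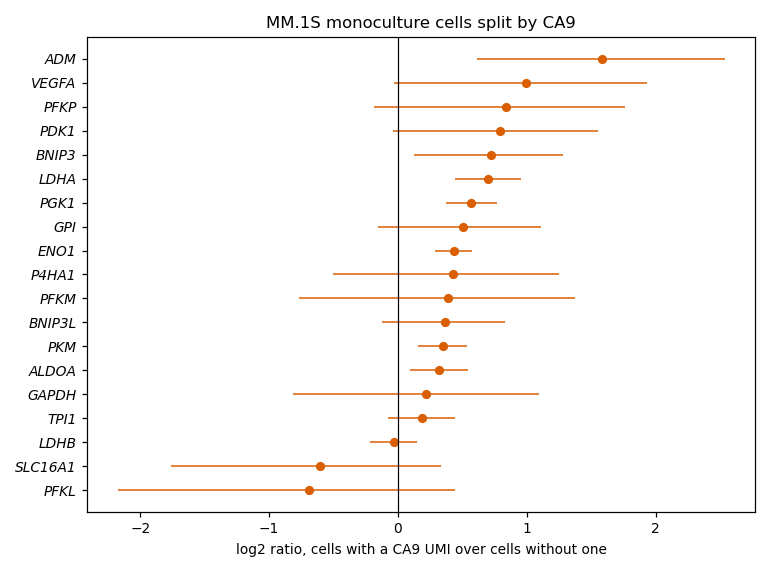
Log2 ratio between MM.1S monoculture cells with a CA9 UMI (217 cells) and without one (3653 cells), for the 19 other genes that averaged 30 CPM or more at 1000 UMIs per cell. Bars are 95% counting intervals. ADM, which passed that minimum only through the cells with CA9, is highest at 1.58, and the point of LDHB lies at -0.03.

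ADM was at 17.8 CPM in cells without CA9 and 55.3 CPM in cells with it, a log2 ratio of 1.58 (interval 0.61 to 2.54) from 12 UMIs. ADM passed the minimum only through the cells with CA9. BNIP3 was at 80.5 and 134 CPM, a log2 ratio of 0.72, LDHA at 405 and 659 CPM, 0.70, and PGK1 at 710 and 1055 CPM, 0.57. ENO1, PKM and ALDOA had log2 ratios of 0.43, 0.35 and 0.32. LDHB, the subunit that is no classical HIF target, was at 1232 and 1207 CPM, and SLC16A1 and PFKL had log2 ratios of -0.60 and -0.69 with intervals that held 0. The cells come from 1 library, and the intervals treat its molecules as independent.

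Further lists put the 40 genes in their pathways. The 27 other genes of glycolysis and pyruvate use had 15 measured between the monocultures, of which 3 were at least 2-fold higher (20%) and 5 lower (33.3%) in HS-5, beside 38.1% and 15.3% of all measured genes. The highest were SLC16A7, the lactate transporter MCT2, with a log2 ratio of 3.60, and PDP1, a phosphatase that activates pyruvate dehydrogenase, with 2.5. The lowest were the muscle enolase ENO3 at -2.97 and MPC1, a subunit of the mitochondrial pyruvate carrier, at -2.41. PGM2, PDK3, DLD and BSG made up the rest of these 8, with 1.11, -2.32, -1.95 and -1.83, of which DLD and BSG were named after their values were seen. In MM.1S cells 2 of 15 (13.3%, beside 19.1% of all measured genes) were at least 2-fold higher in coculture, SLC16A7 at 5.27 and 22.6 CPM and TIGAR, a fructose bisphosphatase, at 14.4 and 30.1 CPM. The latter was at 0.77, under 2-fold, with the median of all genes set to 0. PDK3 was lower by more than 2-fold, with 21.0 and 6.77 CPM, and MPC2 had a log2 ratio of -0.74. In HS-5 cells 0 of 14 passed 2-fold, close to the 3.05% of all measured genes. They ranged from -0.40 for PGM2 and -0.28 for SLC2A6 to 0.83 for MPC2 and 0.90 for BPGM.

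The 7 genes of the pentose phosphate pathway, which branches from glucose 6-phosphate, were all measured. Between the lines 1 passed 2-fold (14.3%, beside 53.5% of all measured genes), PGD at 88.1 CPM in MM.1S and 35.8 CPM in HS-5. RPIA had a log2 ratio of -0.54, RPE 0.55 and PGLS, just short of 2-fold, 1.00. In MM.1S cells 0 passed 2-fold in coculture, beside 24.9% of all measured genes. TKT, transketolase, was at 231 and 405 CPM, a log2 ratio of 0.81 (interval 0.67 to 0.95), RPIA had 0.64, PGD -0.47 and PGLS -0.63. In HS-5 cells the same list lay between -0.34 for TKT and 0.14 for RPIA, with TALDO1 at -0.17 and PGD at 0.06.

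Of 12 other regulators of the HIF pathway, 11 were measured between the lines, with 6 at least 2-fold higher in HS-5 (54.5%) and 0 lower, beside 38.1% and 15.3% of all measured genes. EP300, a HIF coactivator, had a log2 ratio of 1.82 and HIF1AN, the asparagine hydroxylase of HIF, 1.40, while ELOB and RBX1, subunits of the ubiquitin ligase that removes HIF, had -0.77 and -0.22. None passed 2-fold in either line's coculture (0 of 10 in MM.1S and 0 of 11 in HS-5), beside 24.9% and 3.05% of all measured genes. CITED2, which competes with HIF for its coactivator, had log2 ratios of -0.92 in MM.1S and -0.97 in HS-5. In MM.1S, ARNT was at -0.50, ELOC at 0.61 and EP300 at 0.94, and in HS-5, CREBBP was at -0.78, RBX1 at 0.69 and ELOB at 0.79.

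Of 25 further hypoxia targets, 22 were measured between the lines, with 9 at least 2-fold higher (40.9%) and 4 lower (18.2%) in HS-5, shares close to the 38.1% and 15.3% of all measured genes. PLOD2, a lysyl hydroxylase of collagen, was at 0.958 CPM in MM.1S and 449 CPM in HS-5. IGFBP3, which binds insulin-like growth factors, was at 248 and 8.79 CPM, and HILPDA, a lipid droplet protein, had a log2 ratio of -1.94. FAM162A and DDIT4, named after their values were seen, were the other genes 2-fold lower, with -1.81 and -1.46. In MM.1S cells 3 of 17 were at least 2-fold higher in coculture and 0 lower, and the share higher, 17.6%, is close to the 19.1% of all measured genes. IGFBP3 was at 248 CPM in monoculture and 855 CPM in coculture, a log2 ratio of 1.78 (interval 1.69 to 1.89), and TFRC, the transferrin receptor, at 58.7 and 205 CPM, a ratio of 1.79 on that scale. The other was ERO1A, an oxidase of protein folding named after its value was seen, at 1.09, which was 0.85 with the median of all genes set to 0 and 0.59 with the length trend removed. HILPDA had -0.66 and INSIG2 -0.44. In HS-5 cells HMOX1 was at -0.65, FAM162A at 0.65 and BHLHE40 at 0.83. These values do not span the full range of the list, from which a gene is left out here.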

How the data were processed

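The authors deposited whole-number UMI counts per gene and cell barcode, with no normalization, in 1 table for each of the 3 Drop-seq libraries (3994, 3865 and 3963 barcodes). The submitters' processing notes name Cell Ranger 3.0.2, UMI-tools 1.0.0, STAR 2.5.3a, featureCounts 1.6.4 and SAMtools 1.9 with GRCh38, and the annotation is not given in the sources used here. The authors' own analyses used Seurat.

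Cells with at least 200 genes were kept. Line-specific genes had at least 100 CPM in their own monoculture and 50 times the other's. A coculture cell with at least 5 line-specific UMIs was given to HS-5 above a share of 0.8, to MM.1S below 0.2, and left out between (2.67% of 3856 cells). Counts were summed per line and culture and scaled to CPM, with a pseudocount of 1 and a minimum mean of 10 CPM. With 1 library per condition there was no test, and a call was a 2-fold difference. Intervals were Poisson for levels, conditional binomial for ratios and Clopper-Pearson for shares. The share of free RNA came from UMIs of genes specific to the other line. Transcript lengths and exons came from GENCODE release 29, which holds 97.3% of the symbols, and promoters of 34 of 40 genes from RefSeq. The ratios, their intervals and the doublet limits were tried on simulated counts from MM.1S monoculture levels and on summed pairs of cells. The simulated counts held counting error only, so that they cannot show how libraries differ. The other steps were not simulated. Python 3.11.15 with numpy 2.4.6, scipy 1.17.1, pandas 2.3.3 and matplotlib 3.10.9 was used.

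The 40 genes and all lists were chosen with earlier results of these data known. All 40 are named, and of each pathway list the 2 highest and the 2 lowest ratios per comparison. A gene that this rule picks is left out. The symbol ERO1L, an older name, had no row. Alternatives covered scaling, cell filters, pseudocounts, minimum levels, split limits, free RNA, pseudogene rows and transcript length. The depth match at 500 to 1500 UMIs and the settings of the share of lines were chosen after seeing the data.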

Additional observations from a re-analysis of the deposited data

Results flagged for a closer look

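Of 27 genes measured in both lines' comparisons, 7 had ratios of opposite sign in MM.1S and HS-5 cells, each with a counting interval that left out 0. The same count was not made over all genes, so that it cannot be read as particular to this set. Of all 7835 genes measured in MM.1S cells, 3165 were higher and 1511 lower in coculture beyond counting error. In HS-5 cells these were 1768 and 2041 of 8808. The difference between the lines was not tested, since each culture is 1 library, and both ratios use the same coculture library. The log2 ratios of coculture over monoculture in MM.1S and HS-5 cells were 1.16 and -0.31 for SLC16A1, 1.94 and -0.53 for SLC16A3, and 0.63 and -0.47 for GPI. For ALDOA they were -0.63 and 0.20, and for STC2 0.69 and -0.48, where the MM.1S value was 0.35 after subtraction of free HS-5 RNA. For the mitophagy receptors they were -1.18 and 0.65 for BNIP3 and -1.27 and 0.61 for BNIP3L. The lactate transporters were thus higher in MM.1S and lower in HS-5 cells of the coculture, and the mitophagy receptors the reverse.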

How the results depend on the processing

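No called gene changed sign under any setting tried. The median log2 ratio between the lines, 0.64, was 0.076 with all genes centred, 0.33 with totals without ribosomal and mitochondrial genes, 0.16 at a minimum of 50 CPM, 0.39 with no minimum, 0.080 with the length trend removed and 0.42 in cells of 500 to 1500 UMIs. The count past 2-fold between the lines, 20, was 10 at a minimum of 50 CPM, which left 19 genes, beside 52.2% of all genes. The count of 13 in MM.1S cells was 8 with a pseudocount of 10, 3 at a minimum of 50 CPM and 20 with no minimum. The shares of all genes at these settings were 14.1%, 21.9% and 16.8%. The count of 1 in HS-5 cells was 3 with equal weight per cell, 4 with cells thinned to 500 UMIs and 0 with a pseudocount of 10. It was 0 at a minimum of 50 CPM, 3 with the length trend removed and 5 in cells of 500 to 1500 UMIs. The shares of all genes were 7.93%, 11.2%, 1.09%, 2.57%, 2.46% and 12.1% in this order. With at least 500 genes per cell, 67.1% of assigned coculture cells were HS-5 in place of 56.1%. Apart from the fewer genes at a higher minimum, the cause was not tested. No paired analysis was possible because each culture is 1 library and no test was made. In MM.1S coculture cells 3 UMIs are worth 2.26 CPM, which limits genes under about 10 CPM.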
